A study of Mus musculus with 18 samples.

Results

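Heat shock protein genes were followed in the authors' deposited tables of differential m6A peaks from the uterus of pregnant mice. The 10 genes were Hspa1a-3, Hspa1a, Hspa1b, Hspa4, Hspa5, Hspa8, Hsp90aa1, Hsp90ab1, Hsph1 and Dnajb1. They were chosen by their measured entries in these tables, so their presence, scores and directions are given as a description, with no test. A peak was counted for a gene when the deposited annotation assigned the peak to it or named it as the transcript that holds the peak. This gave 23 of 41084 peaks, assigned to 7 of the 10 genes, among 16483 genes with a peak in all. Hspa1a, Hspa1b and Hsp90ab1, all on chromosome 17, had no peak under their own names. The table of peaks lower in LPS than in Veh stops before that chromosome.

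The mice were wild-type ICR animals, 8 weeks old, and all were pregnant, with uteri taken on day 5. The Veh group received intraperitoneal vehicle from day 1 to day 4. The LPS group received the same vehicle and LPS at 0.5 mg/kg on day 3 and day 4. The Mel+LPS group received melatonin at 10 mg/kg in place of vehicle and the same LPS 30 minutes later. Melatonin was dissolved in saline that contained ethanol. Lipopolysaccharide (LPS) is a bacterial cell wall component that sets off inflammation through Toll-like receptor 4, and melatonin is a hormone of the pineal gland. Each of the 3 treatments had 3 replicates, and an m6A antibody library was made beside an input library from every replicate, 18 in all. RNA was taken from the whole uterus, in which fewer cells of a type and less RNA per cell cannot be told apart, and the tables list only differential peaks, so tissue markers could not be checked.

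Peaks of LPS vs Veh are called LPS-up and LPS-down here, and those of Mel+LPS vs LPS are called Mel-up and Mel-down. Each peak has 1 score, the log10 likelihood ratio from MACS2, which is higher when the reads favour a difference between the treatments more strongly over no difference. A score measures neither the fold of the difference nor the share of methylated transcripts. No value per replicate was given, so no replicate error can be attached to a score, and read depth is unknown. The study called peaks from antibody and input libraries with exomePeak2. For the comparison of treatments, the sources used here do not state how replicates were combined or whether input was used. A change of methylation and a change of transcript level therefore cannot be told apart. Both comparisons use the LPS libraries. The LPS-down table stops within chromosome 10 and was compared on chromosomes 1 to 9 only, where Hspa5, Hsph1, Hspa8 and Dnajb1 lie. Scores started at 1.01 to 1.04 in the 4 tables, with medians of 2.88 (LPS-up), 2.67 (LPS-down), 2.17 (Mel-up) and 3.09 (Mel-down).

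Heat shock proteins are chaperones that hold unfolded proteins and return them to their native shape. HSP70 proteins bind short greasy stretches of a client and release them when ATP is bound, HSP40 proteins such as Dnajb1 deliver clients and speed ATP hydrolysis, and HSP110 proteins such as Hsph1 and Hspa4 exchange the nucleotide. HSP90 proteins take over later in folding, among others for steroid hormone receptors, which the uterus needs in early pregnancy. Under stress the transcription factor HSF1 raises the inducible members, and m6A, a methyl group on adenosine set mainly in the DRACH motif (in which D stands for A, G or T, R for A or G and H for A, C or T), is read by proteins that act on splicing, stability and translation of the transcript.

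Inducible HSP70 transcripts carried the highest score among the 23 peaks. Hspa1a and Hspa1b encode almost the same HSP70 protein, which is scarce at rest and abundant after heat or inflammation. Their sequences around the stop codon are shown because the peaks with the highest scores lay at this part of the gene. They were read from chromosome 17 of GRCm38 on the minus strand, 5′ to 3′, with the stop codon in capitals, at chr17:34969988-34970017 for Hspa1a and chr17:34957067-34957096 for Hspa1b.
Hspa1a: atcgaggaggtggatTAGaggcctctgctg
Hspa1b: atcgaggaggtggatTAGaggcctctgctg
Both windows were identical. The first 24 bases after the stop were shared, and the sequences then parted. The next windows show the last 6 shared bases in lower case and the bases from the first difference on in capitals. They were read at chr17:34969952-34969981 for Hspa1a and chr17:34957031-34957060 for Hspa1b, on the minus strand.
Hspa1a: ccggtgCTGGCTAGGAGACAGATATGTGGC
Hspa1b: ccggtgTGGTCTAGAAAACAGACTCTTTGC
The coding sequences differed at 8 of 1926 aligned bases (99.6% identity), and 1245 of 1827 windows of 100 bases in Hspa1a (68.1%) were also found in Hspa1b. The fragmented RNA was about 100 bases long, so a fragment from most places in the coding sequence carries no base that tells the genes apart. In the 3′UTR the identity was 61.9% over 633 aligned bases, and 0 of 711 such windows were shared.

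In the deposited tables the inducible HSP70 genes appear only as numbered copies on scaffolds, whose sequence was not used here. The LPS-down table stops before chromosome 17 and holds 0 scaffold peaks, so LPS-down peaks of these genes and copies could not be seen. All Hspa1a copies carry the same transcript identifier, and all Hspa1b copies share another. The copies may therefore be versions of the same genes and not further genes, which was not tested. Hspa1a-3 had 1 LPS-up peak with a score of 10.9, rank 340 of 12023 in its table. It also had 1 Mel-down peak with a score of 52.6, rank 2 of 9211. Both were annotated to the 3′UTR and both centres lay within the gene. Counted from the gene start, the LPS-up peak covered bases 2025 to 2288 and the Mel-down peak bases 2025 to 2344 of 2780. They shared 264 bases, which is 100% of the LPS-up peak and 82.5% of the Mel-down peak. The Hspa1a-3 site was thus higher in LPS than in Veh and lower in Mel+LPS than in LPS. Hspa1a on chromosome 17 is 2798 bases long, and its coding sequence ends at base 2156. Bases 2025 to 2344 of that gene held 6 DRACH motifs and 2 GGAC. The scaffold sequence was not read, so the stretch of Hspa1a-3 at the same distance may differ.

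The other 4 scaffold copies, Hspa1a-2, Hspa1a-4, Hspa1b-2 and Hspa1b-4, are named differently from the 10 genes and were added after their values were seen. They held 11 peaks, all with the centre in the gene, and none reached a score of 4. Hspa1a-4 had an LPS-up peak of 1.42 and a Mel-down peak of 1.41 that overlapped by 119 bases (70.8% and 100% of them) at bases 2106 to 2224 of that gene, in the 3′UTR. A further Mel-down peak of 1.43 lay at bases 2537 to 2744, also in the 3′UTR. The same copy had Mel-up peaks of 2.04 and 1.93 in its exon, at bases 1364 to 1876 and 792 to 926. Hspa1a-2 had an LPS-up peak of 1.28 at bases 1803 to 1918 and a Mel-up peak of 2.16 at bases 2007 to 2155. Both were annotated to its exon. On the Hspa1a copies, the 3 Mel-down peaks were thus annotated to the 3′UTR and the 3 Mel-up peaks to the exon. Hspa1b-2 had Mel-up peaks of 1.19 (bases 1967 to 2129) and 2.60 (bases 1651 to 1765) in its exon. Hspa1b-4 had Mel-up peaks of 2.89 in its exon (bases 1160 to 1326) and 3.17 in the 3′UTR (bases 2057 to 2291). By distance from the gene start, Mel-up peaks of Hspa1a-2, Hspa1b-2 and Hspa1b-4 covered part of bases 2025 to 2344, where Hspa1a-3 was Mel-down. Copies thus differed in direction at like distances, and whether the bases there are the same was not tested. No Mel-down peak was assigned to an Hspa1b copy.

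**Figure D1:**
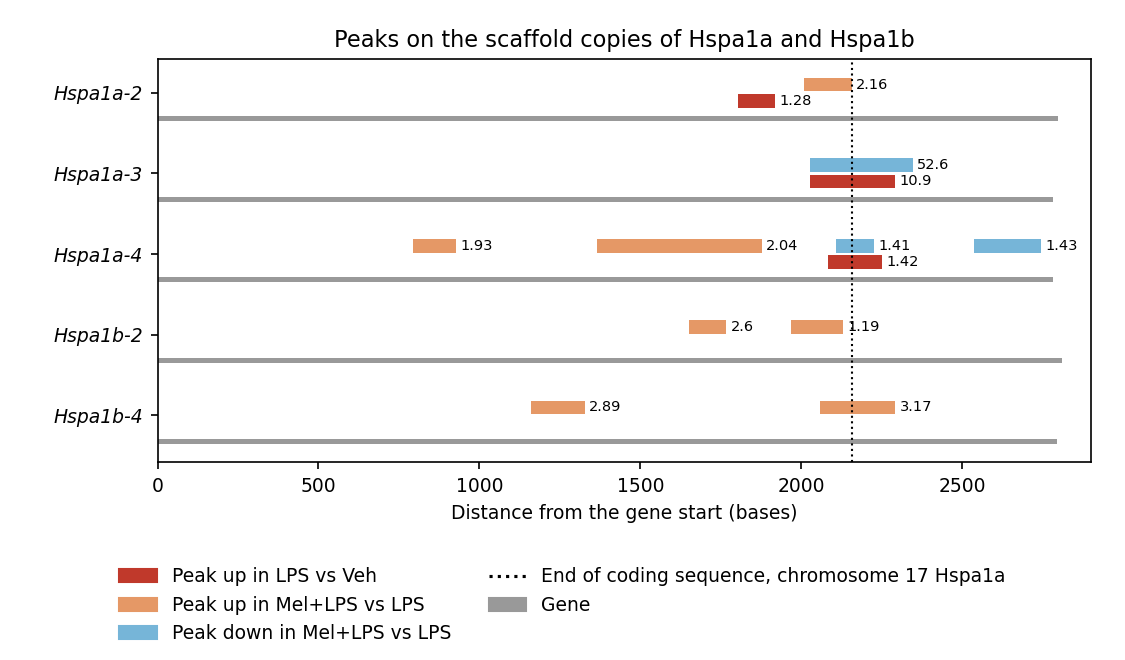
Peaks on 5 scaffold copies of Hspa1a and Hspa1b, placed by their distance from the gene start in bases, coloured by table and labelled with the score (log10 likelihood ratio). The dotted line at base 2156 marks the end of the coding sequence of chromosome 17 Hspa1a and was not read from the scaffold copies. The overlapping peaks of Hspa1a-3 (10.9 in LPS-up, 52.6 in Mel-down) cross this line.

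On chromosome 17 itself, 0 peaks lay within Hspa1a (34969359 to 34972156) or Hspa1b (34956429 to 34959238) in the complete tables. The nearest LPS-up peak was 21.4 kb from Hspa1b, assigned to Neu1, with a score of 2.02. The nearest Mel-up peak was 32.6 kb from Hspa1a, assigned to Vars, with a score of 1.93. How the aligner divided reads among chromosome 17 and the scaffold copies is not given in the sources used here, so the peaks of all copies are uncertain as to their source gene.

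HSP110 and the nucleotide exchange members included Hsph1, the gene with the most peaks, 7 in number, of which 6 had the centre in the gene. The sequences of 3 of its peaks are shown as far as they lay in exons. The first is a Mel-up peak that overlaps an LPS-down peak near the start of the coding sequence. The second is a further Mel-up peak after it, and the last is the LPS-up peak at the end of the coding sequence. These sequences are given 5′ to 3′ on the minus strand of chromosome 5 (GRCm38), with DRACH motifs in capitals. The peaks lay at chr5:149635828-149636008 (Mel-up, score 7.59), chr5:149631880-149632087 (Mel-up, score 2.75) and chr5:149617509-149617635 (LPS-up, score 1.26).
Hsph1 first Mel-up peak: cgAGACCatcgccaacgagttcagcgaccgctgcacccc
Hsph1 second Mel-up peak: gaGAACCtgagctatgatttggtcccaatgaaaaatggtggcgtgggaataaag
Hsph1 last exon LPS-up peak: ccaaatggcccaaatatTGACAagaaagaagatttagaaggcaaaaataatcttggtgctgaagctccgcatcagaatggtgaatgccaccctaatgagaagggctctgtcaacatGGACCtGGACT
The last of them held 3 DRACH motifs and ended 2 bases before the end of the coding sequence, position 2839 of 3802. Both Mel-up stretches were annotated to the 5′UTR in the deposited table but lay in the coding sequence of the GENCODE transcript, which starts at position 263.

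The first Mel-up peak of Hsph1, with a score of 7.59, ranked 887 of 13436. An LPS-down peak with a score of 1.32 lay inside it at chr5:149635851-149635980, with an overlap of 130 bases, 100% of the LPS-down peak and 71.8% of the Mel-up peak. This site was lower in LPS than in Veh and higher in Mel+LPS than in LPS, the opposite order to that at Hspa1a-3. Only 39 of 181 bases of the Mel-up peak and 11 of 130 bases of the LPS-down peak were exonic. Elsewhere in Hsph1, a Mel-up peak of 2.25 was annotated to exon 11 of 18, though only 12 of its 182 bases were exonic. An LPS-up peak of 2.54 was annotated to intron 2 of 17, and neither overlapped a peak of another table. A Mel-down peak of 1.45 was annotated to the promoter, with its centre 229 bases outside the gene. The gene therefore had peaks in all 4 tables, at separate sites apart from the shared one.

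Hspa4, the other HSP110 member, had 1 peak, Mel-up with a score of 2.13, at exon 14 of 19 (chr11:53266862-53267018). Its exonic part is shown as the only Hspa4 sequence in the tables, on the minus strand, with the DRACH motif in capitals.
Hspa4: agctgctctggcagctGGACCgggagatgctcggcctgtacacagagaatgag
This stretch held 1 motif, of the GGAC kind. No LPS-up or Mel-down peak was assigned to Hspa4, and LPS-down peaks on chromosome 11 were not analysed here.

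Hspa5 encodes BiP, the HSP70 of the endoplasmic reticulum, which also holds the sensors of the unfolded protein response inactive. It had 3 peaks, all with the centre in the gene and at neighbouring exons. They are shown because they put peaks of opposite tables close to each other without overlap, on the plus strand of chromosome 2 (GRCm38), with DRACH motifs in capitals and only the exonic bases given. The first lay at chr2:34772755-34772899, exon 3 of 9, the second at chr2:34773273-34773463, exon 4 of 9, and the last at chr2:34773897-34774055, exon 5 of 9.
Hspa5 Mel-up, exon 3: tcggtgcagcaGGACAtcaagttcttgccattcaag
Hspa5 Mel-up, exon 4: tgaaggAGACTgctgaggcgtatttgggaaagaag
Hspa5 LPS-down, exon 5: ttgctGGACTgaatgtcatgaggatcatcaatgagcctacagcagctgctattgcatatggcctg
Each exonic stretch held 1 DRACH motif. The scores were 1.55, 1.69 and 2.30 in the same order, all below the medians of their tables. Along the transcript the peaks lay between positions 592 and 906, and the Mel-up and LPS-down sites were distinct.

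**Figure D2:**
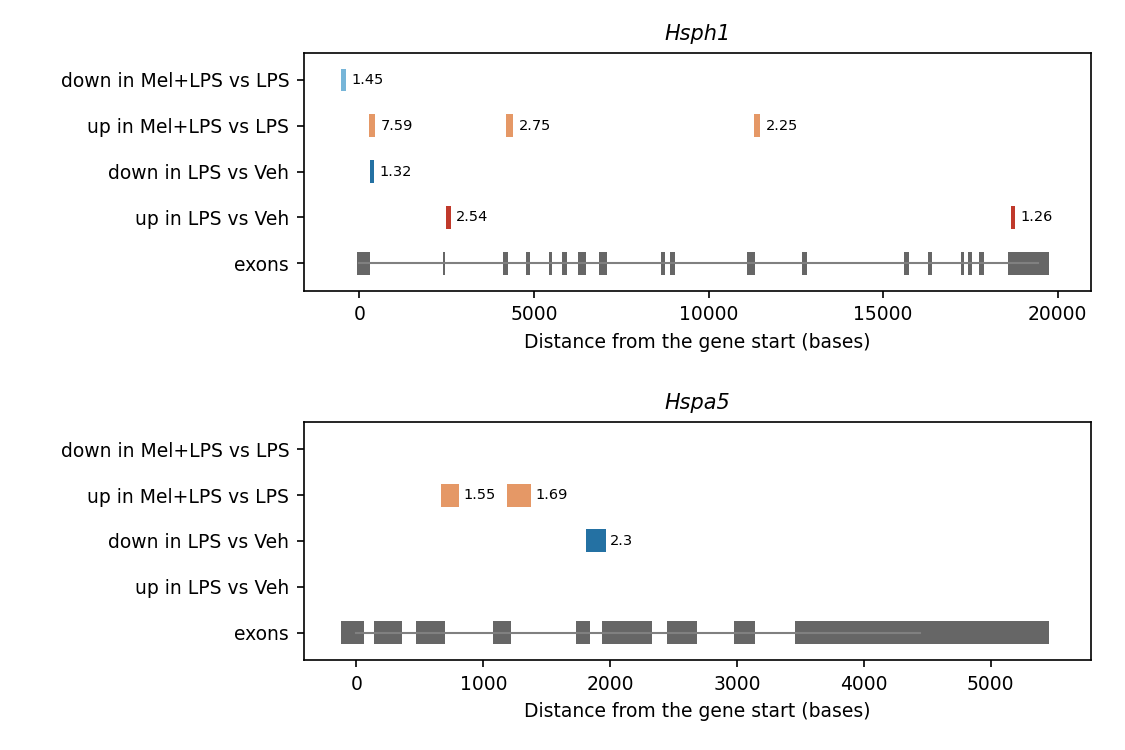
Peaks assigned to Hsph1 (upper panel) and Hspa5 (lower panel) by distance from the gene start in bases, with 1 line for each table, the exons of the GENCODE transcript at the bottom and the score (log10 likelihood ratio) beside each peak. In Hsph1 the Mel-up peak of 7.59 and the LPS-down peak of 1.32 sit at the same place, while the 3 peaks of Hspa5 sit side by side.

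Hspa8 encodes HSC70, the HSP70 made at all times, which also uncoats clathrin vesicles and brings clients to the lysosome. Of 6 peaks assigned to Hspa8, 0 had the centre within the gene (chr9:40801276-40805202). Of these, 4 lay in Clmp, a cell adhesion gene upstream of Hspa8. An LPS-down peak of 2.65 and a Mel-up peak of 1.66 overlapped there by 115 bases (71.0% and 100%), 28.7 kb from Hspa8. The other 2 in Clmp were Mel-up, with scores of 12.5 in intron 5 of 6, 25.1 kb away and rank 184 of 13436, and 1.13 in the 3′UTR, 17.8 kb away. The last pair lay between the genes at chr9:40790867-40791066, 10.3 kb from Hspa8, at the same 200 bases in the LPS-up table (6.90) and in the Mel-down table (7.01). The 3 highest scores listed under Hspa8 thus belonged to an intron of Clmp and to an intergenic site.

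Inside Hspa8, 2 Mel-up peaks were assigned to small nucleolar RNA genes that lie in its introns. The one at chr9:40802519-40802687 had a score of 1.17 and was assigned to Snord14c, and the one at chr9:40805047-40805188 had a score of 1.92 and was assigned to Snord14e. The latter was annotated to the 3′UTR. These peaks are outside the 23, and they were the peaks of the tables that lay on the Hspa8 gene.

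**Figure D3:**
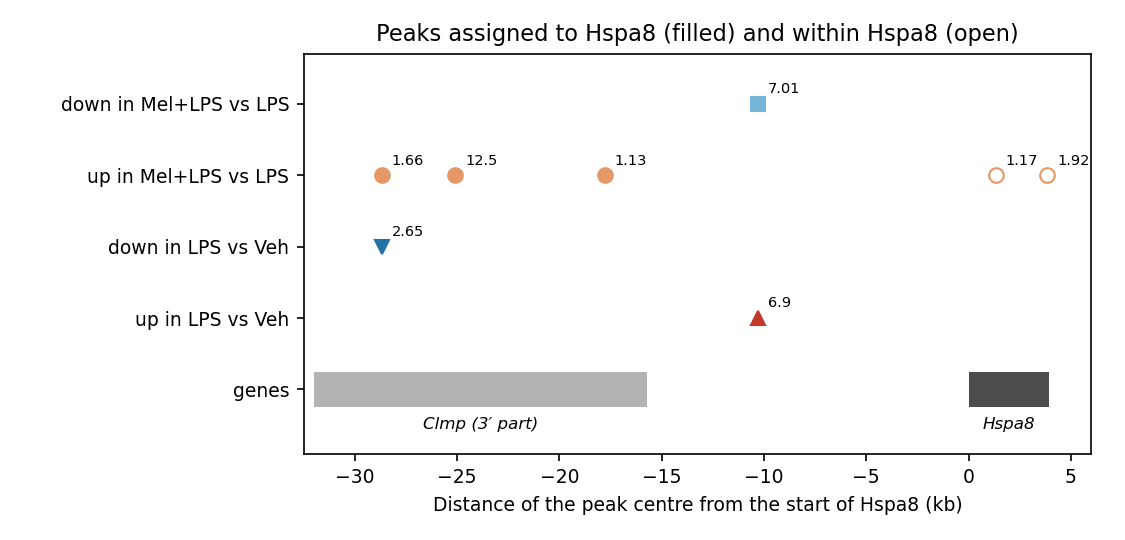
Peaks around Hspa8 on chromosome 9 by the distance of the peak centre from the start of Hspa8 in kb, with 1 line for each table and the score (log10 likelihood ratio) beside each peak. Filled symbols are peaks assigned to Hspa8, which lie between 28.7 and 10.3 kb upstream, and open symbols are the peaks of 1.17 and 1.92 within the gene, assigned to other genes.

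The HSP90 gene Hsp90aa1 and the HSP40 gene Dnajb1 had only Mel-up peaks in the complete tables. Hsp90aa1, the stress-inducible HSP90, had peaks of 1.57 at exon 6 of 11 (chr12:110693596-110693718) and 1.49 at exon 4 of 11 (chr12:110694457-110694635). Only 8 bases of the first and 65 bases of the second were exonic, and neither stretch held a DRACH motif at the deposited position. Moved by 100 bases toward the 5′ end of the transcript, the peaks had 108 and 134 exonic bases with 3 and 4 DRACH motifs. The second is shown as deposited, as the longer exonic stretch of this gene, on the minus strand and in lower case throughout.
Hsp90aa1, exon 4: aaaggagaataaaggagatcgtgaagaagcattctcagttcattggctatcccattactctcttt
Hsp90ab1, the HSP90 made at all times, had 0 peaks within the gene (chr17:45567778-45573261) in the complete tables. The nearest lay 4.79 kb away (LPS-up, 1.40) and 5.19 kb away (Mel-down, 2.18), both assigned to Slc35b2, and 11.6 kb away (Mel-up, 1.47), assigned to Nfkbie. The coding sequences of Hsp90aa1 and Hsp90ab1 were 76.59% identical and shared 0 windows of 100 bases.

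Dnajb1 had 2 Mel-up peaks on chromosome 8. The one at chr8:83610826-83611116 lay in the 3′UTR with a score of 3.33, above those of the other Mel-up peaks of Dnajb1 and Hsp90aa1. The one at chr8:83608327-83608589 was annotated to the promoter with a score of 1.39, its centre 90 bases before the start of the transcript named in the table, but within the RefSeq gene (83608175 to 83612653). Its exonic bases lay at positions 135 to 350 of the GENCODE transcript, whose coding sequence starts at position 140. A window around 1 GGAC motif of each is shown on the plus strand, with the motif in capitals, as these peaks held 3 and 6 DRACH motifs in 216 and 291 exonic bases.
Dnajb1 promoter peak: gcgctaccacccGGACAagaacaaggagc
Dnajb1 3′UTR peak: ccctcctggaatGGACCcaccctctgcac
Dnajb1 lies on chromosome 8, where the LPS-down table is complete, and had no peak in LPS vs Veh in either direction.

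**Figure D4:**
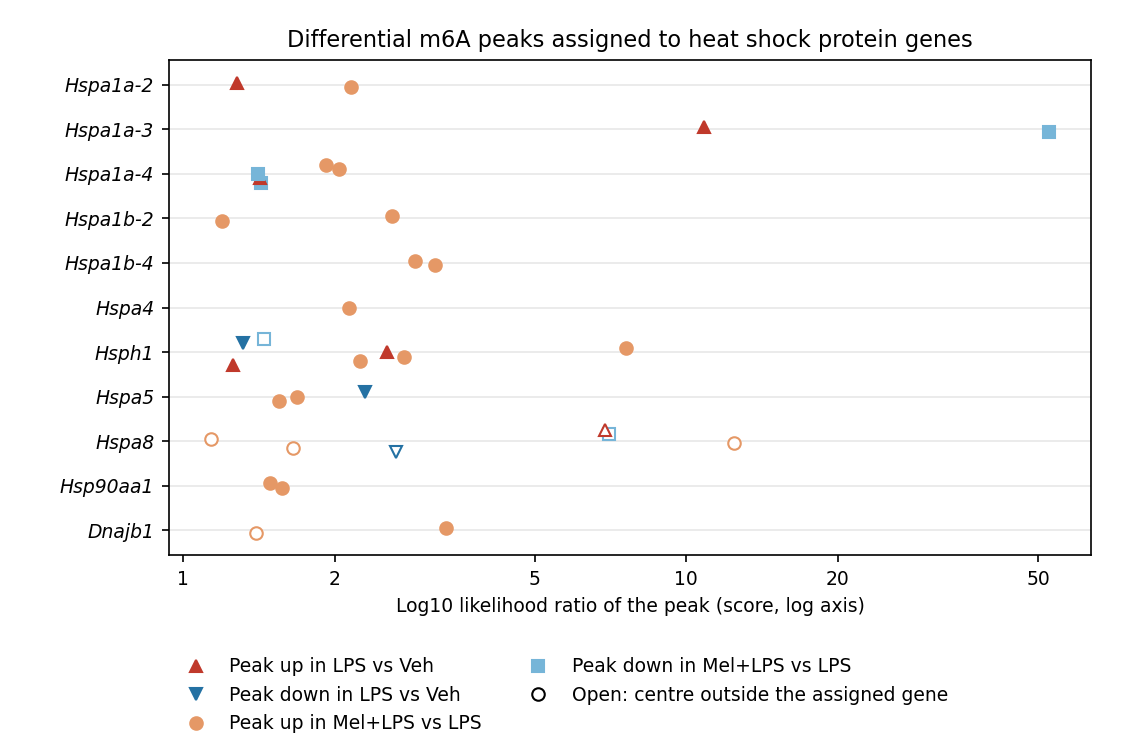
Scores (log10 likelihood ratio, log axis) of the peaks assigned to each gene, with the scaffold copies of Hspa1a and Hspa1b on lines of their own, 1 symbol and colour for each table, and open symbols where the peak centre lies outside the assigned gene. The Mel-down peak of Hspa1a-3 at 52.6 stands to the right of all others, and Hsp90aa1, Hspa4 and Dnajb1 show only Mel-up peaks.

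Counted over the 10 genes, 4 LPS-up peaks were assigned to 3 of the 7 members with a peak (Hspa1a-3, Hspa8 and Hsph1). Beside this, 49% of 16456 genes had an LPS-up peak. These are the genes with a peak once LPS-down peaks beyond chromosome 9 are left out. The 3 LPS-down peaks were assigned to 3 of the 4 members on chromosomes 1 to 9 (Hspa5, Hspa8 and Hsph1), beside 48.9% of 9122 genes there. The 13 Mel-up peaks were assigned to 6 of the 7 members with a peak, all but Hspa1a-3, beside 52.4% of those 16456 genes. The 3 Mel-down peaks were assigned to 3 of the 7 (Hspa1a-3, Hspa8 and Hsph1), beside 42.1% of those 16456 genes. The genes were chosen from these tables, so nothing is read from these counts beyond their description. Hspa4, Hsp90aa1 and Dnajb1 were found in the Mel-up table alone, and for Hspa4 and Hsp90aa1, on chromosomes 11 and 12, LPS-down peaks were not analysed here.

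In Mel+LPS vs LPS, 13 of 16 member peaks were up, beside 59.3% of 22647 peaks in that comparison. With peaks outside the assigned gene left out, 9 of 10 were up, beside 65.4% of 10984 peaks in that comparison with the centre in the assigned gene. The other scaffold copies had 7 of 9 up. In LPS vs Veh on chromosomes 1 to 9, 3 of 6 member peaks were up, beside 49.8% of 12479 peaks. The centre lay in the assigned gene for 15 of 23 member peaks, beside 47.4% of 40929 peaks. The 8 outside were the 6 of Hspa8 and the peaks of Hsph1 and Dnajb1 that were annotated to the promoter. Median member scores were 4.72 (LPS-up), 2.30 (LPS-down), 1.69 (Mel-up) and 7.01 (Mel-down), over 4, 3, 13 and 3 peaks. The Mel-down median was the score of the intergenic site 10.3 kb from Hspa8. The LPS-up median also drew on that site, so both rest on a peak outside the gene it was assigned to.

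Peaks of opposite direction in both comparisons overlapped at 4 member sites. Of these, 2 were LPS-up and Mel-down, at Hspa1a-3 and between Clmp and Hspa8, and the other two were LPS-down and Mel-up, in Hsph1 and in Clmp. Overlaps of the same direction numbered 0. Since the LPS libraries enter both comparisons, opposite scores at a site are not independent of each other, and these counts are given as a description of the sites, not as a difference from other genes. Of the 4 sites, 2 lay in the gene they were assigned to, those of Hspa1a-3 and Hsph1.

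The position of the peaks was also compared with the exons. The 14 member peaks that lay in the RefSeq gene on a chromosome covered 2475 bases, of which 1012 (40.9%) were exonic in 1 GENCODE transcript per gene. When each peak was moved by 100 bases toward the 5′ end of the transcript, 1996 bases (80.6%) were exonic. The exonic part grew in 12 of the 14, as at the Hspa5 peak of exon 3, from 36 to 136 bases, and shrank in 1, the LPS-up peak in the last exon of Hsph1, from 127 to 102 bases. The exonic bases of all peaks in exons of their assigned gene also rose with the move, from 1658869 in 12154 peaks to 2101673 in 13494. These are bases over a changing number of peaks and not a share of peak bases. The size of the rise in members therefore cannot be set against them. DRACH motifs on the transcript strand numbered 18 in the 1012 member bases, or 17.8 per 1000, beside 24.5 per 1000 in the 12154 peaks. Of 13 member peaks with exonic bases, 9 held one (69.2%), beside 80.5% of the 12154. After the move the densities were 24.05 and 23.7 per 1000, and 14 of 14 member peaks (100%) held a motif, beside 92.5% of all. GGAC alone was found 9.88 times per 1000 bases in member peaks and 5.57 times in all as deposited, and 6.51 and 5.50 times after the move. The values of the members thus depended on where the peaks were taken to lie. These densities rest on few bases and carry no test.

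Other chaperone and heat shock genes were followed as a list of 75 genes, of which 46 had a peak in any table. Mel-up peaks were assigned to 35 of the 46 (76.1%) and Mel-down peaks to 8 (17.4%), beside 52.4% and 42.1% of all genes with a peak. LPS-up peaks were assigned to 21 (45.7%), and LPS-down peaks to 14 of the 24 on chromosomes 1 to 9 (58.3%), beside 49% and 48.9%. The Mel-up peaks numbered 74, of which 65 had the centre in the gene. This list was written with earlier results of these data known, and its counts are a description.

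Hspa14, an HSP70 that works at the ribosome, had the highest score of the list in 2 tables, with an LPS-down peak of 7.70 and a Mel-up peak of 10.01 at exon 5 of 5. Hspd1, the mitochondrial chaperonin HSP60, had 4 LPS-down and 4 Mel-up peaks, all with the centre in the gene, and a highest score of 3.90. Among the heat shock transcription factors, Hsf1 had an LPS-up peak of 6.24 in intron 1 of 13. Hsf2 had an LPS-up peak of 6.09 at exon 3 of 13 and a Mel-up peak of 5.83 annotated to the 5′UTR. The latter lay where 4930467K11Rik overlaps Hsf2. Peaks assigned to Hsf2 were therefore up at different sites in both comparisons. Bag2, a nucleotide exchange cochaperone, was listed with an LPS-up peak of 3.41 that lay in Zfp451 and an LPS-down peak of 3.85 that lay in Rab23, neither in Bag2 itself. In the Mel-down table the highest were Sil1, the nucleotide exchange factor of BiP (7.62), the HSP40 gene Dnajb6 (5.60, 3′UTR) and Dnajc13 (4.77), which also had a Mel-up peak of 5.42. The centre of the Sil1 peak lay outside the Sil1 transcript named in the table, and both Dnajc13 peaks lay where Gm46130 overlaps it. The Mel-up score of 5.42 was shared by Hspa4l, an HSP110 gene, in intron 2 of 19, and by Trap1, the mitochondrial HSP90, at a site in Crebbp.

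The unfolded protein response list held 20 genes, of which 11 had a peak. Mel-up peaks were assigned to 7 (63.6%), Mel-down peaks to 4 (36.4%) and LPS-up peaks to 2 (18.2%). Of all genes with a peak, 52.4%, 42.1% and 49% were in these tables. LPS-down peaks were assigned to 2 of the 4 on chromosomes 1 to 9 (50%), beside 48.9% of genes there. The protein disulfide isomerases Pdia6 (6.29, exon 5 of 13) and P4hb (4.03, exon 1 of 11) and the lectin chaperone Calr (2.71, exon 1 of 9) had the highest Mel-up scores. The LPS-down genes were Calr (1.72, exon 3 of 9) and Manf (1.58, exon 1 of 4). The highest LPS-up score was that of Sel1l (6.19), at an intergenic site that was Mel-down with 6.29, and Atf4 followed with 1.43 at a site in Mief1. Neither LPS-up site lay in the gene it was assigned to. In the Mel-down table Sel1l was followed by Edem1 (2.99, exon 9 of 12) and the stress transcription factor Ddit3 (1.62, 3′UTR).

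**Figure D5:**
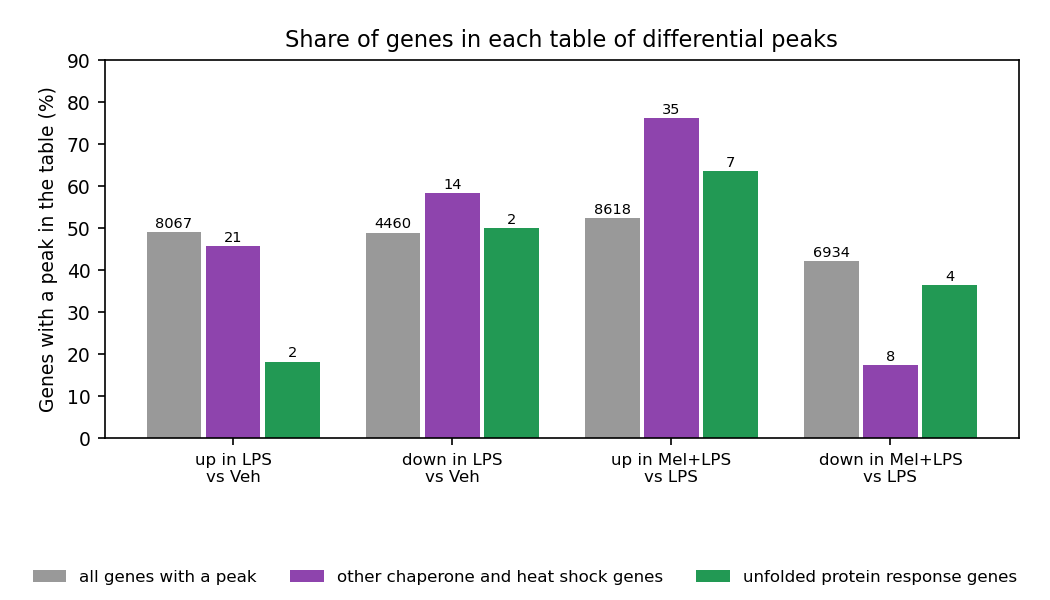
Percentage of genes with a peak in each table, for all genes with a peak, for the other chaperone and heat shock genes and for the unfolded protein response genes, with the number of genes above each bar and LPS-down counted on chromosomes 1 to 9. The bars of the chaperone list read 76.1% for Mel-up and 17.4% for Mel-down, beside 52.4% and 42.1% of all genes.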

How the data were processed

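Per the study's methods and the submitters' processing notes, reads were aligned with STAR 2.5.2a. The study's methods name exomePeak2 for calling peaks from antibody and input libraries. Treatments were compared with MACS2 3.4, and peaks were annotated with ChIPseeker 1.22.1 on mm10 (GRCm38). HOMER 4.10 motifs were not analysed here. The authors deposited 1 score per peak, the log10 likelihood ratio, in 4 tables. The LPS-down table ends in chromosome 10 after base 44439614. The genes, lists and alternatives were chosen with earlier results of these data known. Named were all 10 members, the 3 genes of each list with the highest score in each table with ties, and genes holding the centre of a member's peak. The genes nearest to members without peaks and Snord14c and Snord14e were added after their values were seen, as were motif counts over all peaks in exons of the assigned gene. Exonic parts, motifs and sequences came from GENCODE release 21, with 1 transcript a gene and 21842 protein-coding genes, which matched 9 of 10 members, as did RefSeq. Alternatives were stricter scores, centres within the gene, merged peaks, other overlap rules, joined copies, another motif and moved peaks. Python 3.11.15, pandas 2.3.3, numpy 2.4.6, Biopython 1.88 and matplotlib 3.10.9 were used, and the steps were tested on simulated data. No test was run, since 1 value per comparison gives no replicate error.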

Additional observations from a re-analysis of the deposited data

How the results depend on the processing

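No paired analysis was possible because the tables give 1 score for a peak in a comparison and no score for a replicate, and no replicate could be left out for the same reason. A score of at least 3 left 2 of 4 LPS-up, 0 of 3 LPS-down and 3 of 13 Mel-up member peaks, and a score of at least 6 left 2, 0 and 2. The members with an LPS-down peak fell from 3 to 0 under both, and those with a Mel-up peak from 6 to 3 and 2. With a score of at least 3 in both tables, the sites LPS-down and Mel-up fell from 2 to 0. With the centre required in the gene, 1 of 3 Mel-down peaks and 1 of 3 members were left. Adding the other scaffold copies, an alternative chosen after seeing the data, gave 20 Mel-up and 5 Mel-down peaks. GGAC in place of DRACH gave 9.88 in place of 17.8 motifs per 1000 bases in member peaks. Under the remaining alternatives the counts stayed within 1.5 times those given. The LPS-down table limits comparison to chromosomes 1 to 9, and the unknown depth leaves an absent peak without a limit of detection.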
